A study of Homo sapiens with 4 samples.

Results

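Polyamine metabolism was examined through 10 genes in RNA sequencing of the human melanoma line A375, treated with the antidepressant paroxetine hydrochloride (PH) or with its solvent control, DMSO. The genes were the rows of the deposited table named SAT1, ODC1, OAZ1, OAZ2, AZIN1, SMS, SRM, AMD1, PAOX and SMOX, each found once among 60595 genes. There were 2 PH libraries and 2 DMSO libraries, all from cells that the labels give as WT and that carry no other treatment. The sources used here give neither drug dose nor treatment time. Nothing states that the 2 libraries of a group are separate cultures, so each p-value reflects library spread that may be technical.

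Polyamines are small, positively charged amines that bind nucleic acids and are needed for cell growth and for translation. ODC1, ornithine decarboxylase, makes putrescine from ornithine. SRM, spermidine synthase, and SMS, spermine synthase, then add aminopropyl groups, which AMD1, adenosylmethionine decarboxylase, supplies. SAT1 acetylates spermidine and spermine for export or for oxidation by PAOX, and SMOX oxidises spermine directly. The antizymes OAZ1 and OAZ2 bind ornithine decarboxylase, send it to the proteasome and reduce polyamine uptake, and the antizyme inhibitor AZIN1, an inactive relative of ornithine decarboxylase, holds antizyme back.

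The main pattern is that SAT1, on the breakdown side, rose 3.80-fold in PH libraries while ODC1, AMD1, SRM and SMS, the enzymes of synthesis, fell to between 0.578 and 0.724 of their DMSO level. AZIN1 fell to 0.716 of its DMSO level and OAZ1 to 0.798, while OAZ2 was at 51.7 FPKM in both groups. FPKM, the deposited unit, counts fragments scaled for transcript length and for the size of the library. Tests were made with limma on log2(FPKM + 1) over the 15511 genes that reached 1 FPKM in at least 2 of the 4 libraries, and a gene was called at a Benjamini-Hochberg adjusted p under 0.05 over all of them. Of the 10 genes, 9 passed the filter, and PAOX did not. Among the 9, 6 were called lower, beside 20.5% of all genes tested, and 1 was called higher, beside 18.1%. In either direction 7 of the 9 were called, beside 38.6% of all genes. The median difference was -0.46 over the 9 genes and -0.0047 over all genes tested, on the log2(FPKM + 1) scale.

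The upstream sequences are shown for SAT1, the gene that rose, and for SRM and ODC1, the genes of synthesis that held a match to the E-box CACGTG. Windows of 250 bases before the start in RefSeq (GRCh38.p14) were found for 7 of the 10 genes and searched on both strands for the E-box, bound by MYC with MAX and by TFEB and TFE3, for the antioxidant response element core TGACNNNGC of NRF2, for the amino acid response element core TGATGNAA of ATF4 and for the cyclic AMP response element core TGACGT. The first letters of TGACGT are also those of the NRF2 core, so a stretch can match both. In the first listed window of each of 27305 genes, the E-box was found in 6.49%, the NRF2 core in 11.0%, the ATF4 core in 3.19% and TGACGT in 7.42%. The 7 genes were instead searched in every listed window, and 2 of the 7 held an E-box. The other 5, SAT1, AMD1, SMS, OAZ1 and OAZ2, held none, and of these AMD1, SMS and OAZ1 were also called lower. The E-box of ODC1 was not in its first window, so the 2 of 7 and the 6.49% come from unlike searches. The SAT1 window (chrX:23782923-23783172, + strand) and the SRM window (chr1:11060019-11060268, - strand) follow in full, with a match in capitals, and for ODC1 30 bases upstream of its second listed start (chr2:10448024-10448053, - strand) are shown.
SAT1: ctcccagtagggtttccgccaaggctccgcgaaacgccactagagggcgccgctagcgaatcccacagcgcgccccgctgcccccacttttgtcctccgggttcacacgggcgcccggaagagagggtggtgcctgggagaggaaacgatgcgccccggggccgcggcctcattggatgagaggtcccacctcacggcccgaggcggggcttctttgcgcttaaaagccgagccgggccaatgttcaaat
SRM: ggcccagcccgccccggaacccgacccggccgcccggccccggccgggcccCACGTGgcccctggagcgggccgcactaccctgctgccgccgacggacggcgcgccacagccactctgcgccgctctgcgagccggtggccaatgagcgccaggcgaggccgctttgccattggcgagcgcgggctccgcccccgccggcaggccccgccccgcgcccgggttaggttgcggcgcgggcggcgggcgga
ODC1: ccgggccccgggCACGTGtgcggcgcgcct
The SRM match lay 199 to 194 bases before the start, and the ODC1 match 29 to 24 bases before the second start. The second ODC1 start is downstream of the first, so that match lies inside the gene (chromosome 2, 10439968 to 10448504) and not upstream of its first start. The window of the first ODC1 start (chromosome 2, 10448328 to 10448577) held TGACGT at 178 to 173 bases before it. Part of that window, with most of this match, also lies within the gene bounds, which reach 10448504. The SAT1 window held none of the 4 sets of letters, which says nothing on whether these factors act on the gene. A match is a description of the letters and not a binding site.

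ODC1, the first enzyme of the pathway (ENSG00000115758, chromosome 2, 10439968 to 10448504), had 14.96 and 14.4 FPKM in the PH libraries, against 25.5 and 25.3 FPKM in the DMSO libraries. The means were 14.7 ± 0.38 FPKM in PH and 25.4 ± 0.20 FPKM in DMSO (SD, n = 2 each), so the spread within each group was small beside the difference. The difference of log2(FPKM + 1) was -0.75 ± 0.08 (SE; adjusted p = 0.00173). AMD1 (ENSG00000123505, chromosome 6, 110874770 to 110895713) had 27.2 and 28.1 FPKM in the PH libraries, against 47.3 and 45.3 FPKM in the DMSO libraries, a difference of -0.72 ± 0.06 (adjusted p = 0.00124). Both proteins are short-lived and under feedback from polyamines. The ratio of AMD1 to ODC1 within a library overlapped between groups, at 1.82 and 1.95 in the PH libraries, against 1.85 and 1.79 in the DMSO libraries.

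The aminopropyl transferases were also called lower, and whether they differed from ODC1 in the size of the change was not tested. SRM (ENSG00000116649, chromosome 1, 11054584 to 11060024) had 62.1 and 52.8 FPKM in the PH libraries, against 90.3 and 82.2 FPKM in the DMSO libraries, a difference of -0.58 ± 0.10 (adjusted p = 0.00829). The groups did not overlap, but without DMSO replicate 1 the call was lost (adjusted p = 0.0622, within 0.00439 to 0.0622 over the alternatives). SMS (ENSG00000102172, chromosome X, 21940573 to 21994835) had 181 and 182 FPKM in the PH libraries, against 254 and 246 FPKM in the DMSO libraries, a difference of -0.46 ± 0.05 (adjusted p = 0.00199). SMS was the most abundant enzyme of the set in both groups. The ratio of SMS to SRM was 2.91 and 3.44 in the PH libraries, against 2.82 and 2.99 in the DMSO libraries, so these ratios overlapped.

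**Figure D1:**
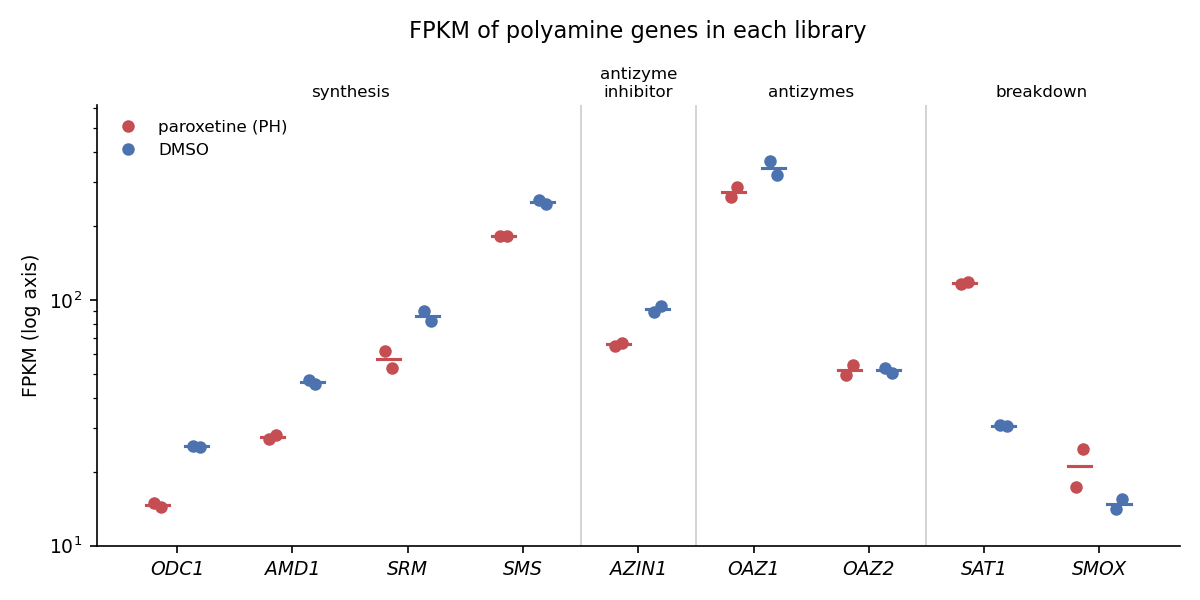
FPKM of 9 polyamine genes (log axis) in each library, with PH left of DMSO for each gene. Points are libraries (2 per group) and bars are group means; PAOX, listed at 0 in 3 of the 4 libraries, is left out. SAT1 alone among the called genes lies higher in PH, at 116 and 118 FPKM.

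SAT1, the rate-limiting enzyme of polyamine breakdown (ENSG00000130066, chromosome X, 23783173 to 23786226), had 116 and 118 FPKM in the PH libraries, against 31.0 and 30.5 FPKM in the DMSO libraries. The means were 117.0 ± 1.06 FPKM in PH and 30.8 ± 0.31 FPKM in DMSO (SD, n = 2 each), far apart beside the spread within each group. The difference was 1.89 ± 0.05 on the log2(FPKM + 1) scale (adjusted p = 0.000189), the 68th highest of 15511. GENCODE release 29 lists 9 transcripts for SAT1, of which 4 are protein coding and 5 are processed transcripts with no coding sequence. A regulated exon that makes the SAT1 message unproductive is known, and a gene-level FPKM does not separate such forms.

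SMOX, spermine oxidase (ENSG00000088826, chromosome 20, 4120980 to 4187747), had 17.4 and 24.6 FPKM in the PH libraries, against 14.0 and 15.4 FPKM in the DMSO libraries. The PH values were above the DMSO values but unequal to each other, and the gene was not called (0.47 ± 0.17, 95% interval 0.03 to 0.90, adjusted p = 0.0845). SMOX was called without PH replicate 1 (difference 0.71, adjusted p = 0.0271) and not without PH replicate 2 (0.22, adjusted p = 0.239), within 0.0271 to 0.378 over the alternatives. PAOX, the peroxisomal oxidase of acetylated polyamines (ENSG00000148832, chromosome 10, 133379234 to 133391694), was listed at 0.621 and 0 FPKM in the PH libraries and at 0 in both DMSO libraries. Exons of PAOX share 6.94% of their bases with the gene AL360181.3 on the same strand, and a listed 0 can be a failed estimate. Of 6 genes that every cell uses, 0 were listed at 0. All 6 were abundant (PGK1, the lowest, at 289 FPKM or more), so this cannot say whether the PAOX zeros are real.

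**Figure D2:**
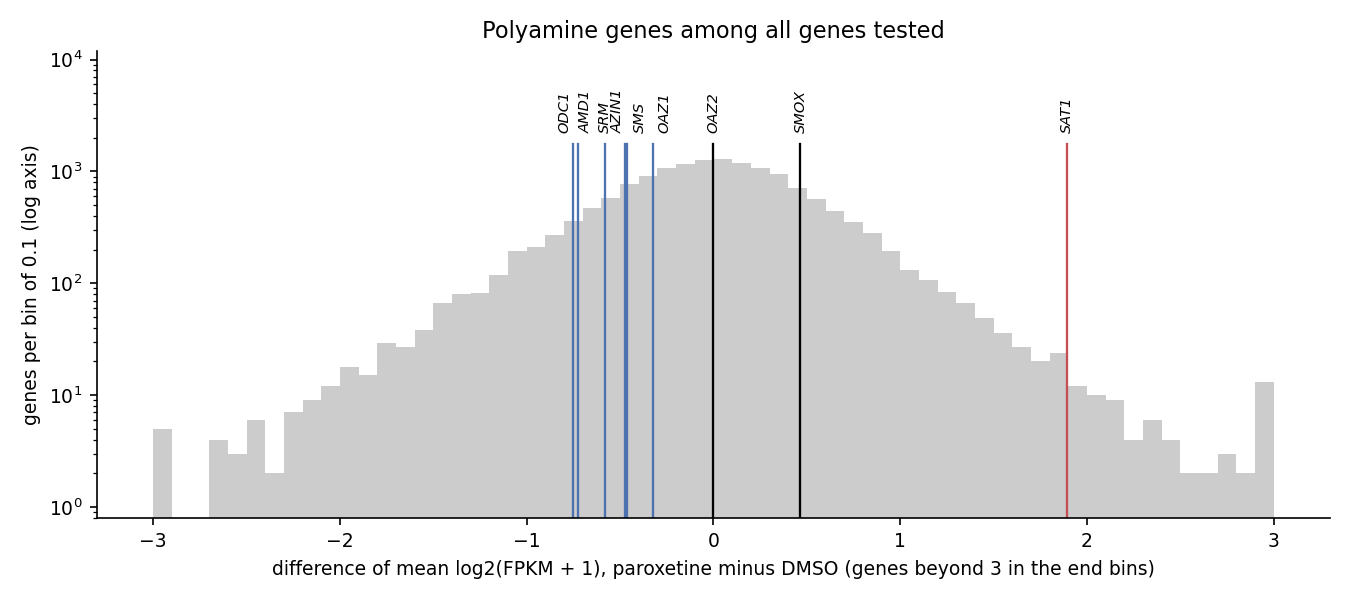
Number of genes per bin of the difference of mean log2(FPKM + 1), PH minus DMSO (x axis), for the 15511 genes tested, with the count on a log axis; vertical lines mark the polyamine genes (red called higher, blue called lower, black not called). SAT1 lies at 1.89, in the upper tail, and the genes called lower lie between -0.75 and -0.32, inside the bulk of all genes.

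OAZ1, the most abundant of the 10 genes (ENSG00000104904, chromosome 19, 2269509 to 2273490), had 261 and 287 FPKM in the PH libraries, against 366 and 321 FPKM in the DMSO libraries. The PH libraries were both lower, but the spread within groups was large beside the difference of -0.32 ± 0.09 (adjusted p = 0.0352). This call was the least firm: it was lost in 9 of 14 alternatives, including each of the 4 that leave out a library (adjusted p = 0.145 without PH replicate 1, 0.0621 without PH replicate 2, 0.154 without DMSO replicate 1 and 0.0518 without DMSO replicate 2), within 0.0241 to 0.566 over all of them. Exons of OAZ1 share 6.87% of their bases with JSRP1 on the opposite strand, which reached 33.7 FPKM, and the sources used here do not say whether the counting used strand. OAZ2 (ENSG00000180304, chromosome 15, 64687573 to 64703281) had 49.3 and 54.1 FPKM in the PH libraries, against 52.9 and 50.5 FPKM in the DMSO libraries. Exons of OAZ2 share 7.22% of their bases with the antisense gene AC100830.3, which reached no more than 2.07 FPKM. The OAZ2 groups overlapped, and the difference of -0.0017 ± 0.07 had a 95% interval of -0.18 to 0.18 (adjusted p = 0.989).

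Antizyme proteins are made only when ribosomes shift frame at a stop codon inside the coding sequence, a step that polyamines favour. The 30 bases around that stop in OAZ1 (chromosome 19, from a GENCODE transcript of OAZ1) are shown, with the serine codon before it and the TGA stop in capitals.
OAZ1: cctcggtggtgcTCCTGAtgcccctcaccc
In GENCODE 2 coding models of OAZ1 leave out 1 base here (chromosome 19, 2271443), and 3 models of OAZ2 leave out 1 base (chromosome 15, 64691515), so that the annotation reads through in 1 frame. FPKM counts messages and does not measure this shift.

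AZIN1, the antizyme inhibitor (ENSG00000155096, chromosome 8, 102826357 to 102893864), had 65.0 and 66.6 FPKM in the PH libraries, against 89.2 and 94.7 FPKM in the DMSO libraries. The groups were well apart, with a difference of -0.47 ± 0.06 (adjusted p = 0.00310). Exons of AZIN1 share 5.35% of their bases with the antisense gene AZIN1-AS1, which reached no more than 1.96 FPKM. AZIN1 and OAZ1, which act against each other, were both called lower, and the ratio of OAZ1 to AZIN1 was 4.01 and 4.31 in the PH libraries, against 4.11 and 3.39 in the DMSO libraries, with overlap between groups. The ratio of OAZ1 to OAZ2 was 5.29 and 5.31 in the PH libraries, against 6.92 and 6.35 in the DMSO libraries, and did not overlap.

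The first enzymes of breakdown and of synthesis were then set beside each other within each library. The ratio of SAT1 to ODC1, in FPKM, was 7.77 and 8.17 in the PH libraries, against 1.21 and 1.21 in the DMSO libraries, a 6.58-fold difference of the means. This ratio does not depend on scaling between libraries. The ratio of ODC1 to OAZ1 was 0.0573 and 0.0502 in the PH libraries, against 0.0697 and 0.0787 in the DMSO libraries, so ornithine decarboxylase message was also lower relative to its antizyme. The ratios are given as a description, with no test. In bulk RNA, fewer cells that express a gene and less RNA per cell cannot be told apart.

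**Figure D3:**
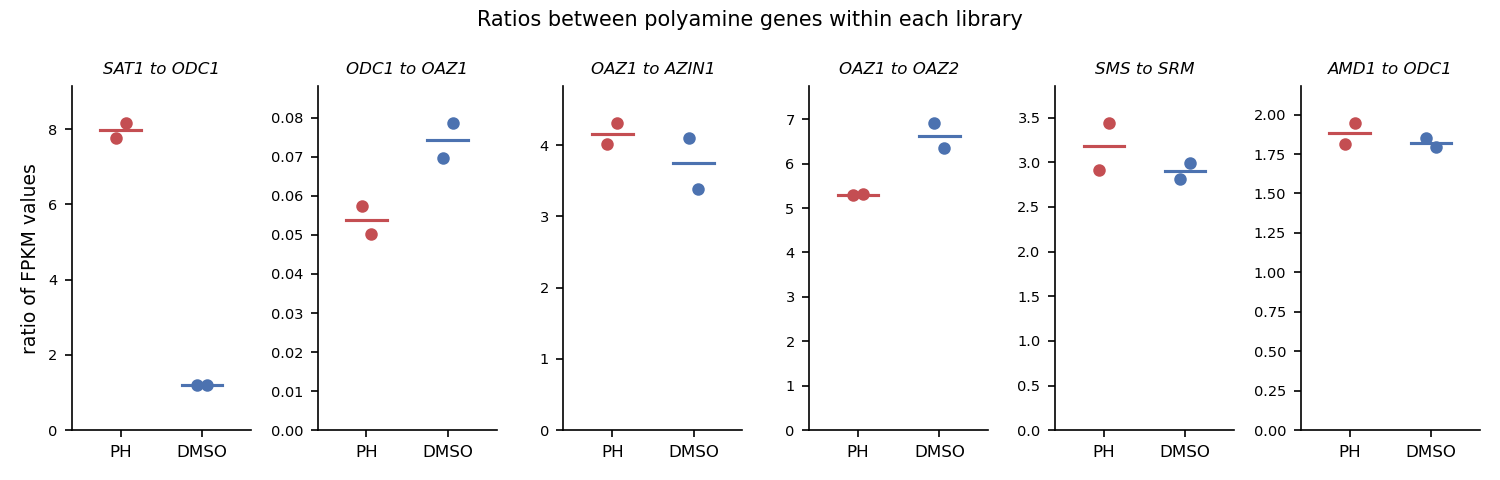
Ratios of FPKM values between pairs of polyamine genes in each library (y axis from 0, with a scale for each pair), with PH left of DMSO; points are libraries (2 per group) and bars are group means. The ratio of SAT1 to ODC1 lies at 7.77 and 8.17 in PH, against 1.21 in both DMSO libraries, while those of AMD1 to ODC1 and SMS to SRM overlap.

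The order of the levels changed with SAT1. In the PH libraries mean FPKM ran from OAZ1 (274) through SMS (181), SAT1 (117), AZIN1 (65.8), SRM (57.4), OAZ2 (51.7), AMD1 (27.6), SMOX (21.0) and ODC1 (14.7) to PAOX (0.310), and SRM and OAZ2 were the only neighbours whose libraries overlapped. In the DMSO libraries it ran from OAZ1 (343) through SMS (250.3), AZIN1 (91.9), SRM (86.3), OAZ2 (51.7), AMD1 (46.3), SAT1 (30.8), ODC1 (25.4) and SMOX (14.7) to PAOX (0), with overlap of AZIN1 and SRM alone. SAT1 lay above AZIN1, SRM, OAZ2 and AMD1 in the PH libraries and below all 4 in the DMSO libraries, and ODC1 and SMOX stood in opposite order. Across the 9 genes tested, 8 had PH and DMSO libraries that did not overlap, beside 71.6% of all genes tested. In 2 of them (SAT1 and SMOX) both PH libraries were above, beside 35.3% of all genes, and in 6 both were below, beside 36.3%.

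Likeness over the 4 libraries was the Euclidean distance of centred log2(FPKM + 1), among tested genes with a symbol and not a clone name. The genes most like SAT1 were HDAC9 (distance 0.043), TXNIP (0.046) and PPP1R15A (0.050). Those most like ODC1 were FAM13A (0.013), HEATR1 (0.023) and MTR (0.028). A distance under 0.2 from ODC1 was found for 638 genes with a symbol and from SAT1 for 25. With 4 libraries in 2 groups, likeness therefore says little beyond the size of the change.

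Other genes that bear on polyamines were taken from 6 lists with 46 genes, of which 32 passed the filter. Of these 5 were called higher and 12 lower, beside the same 18.1% and 20.5% of all genes, and 15 were not called, with a median difference of -0.18. The 14 genes below the filter, among them the arginase gene ARG1, the diamine oxidase gene AOC1 and the methionine adenosyltransferase gene MAT1A, reached no more than 0.477 FPKM in any library.

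Of 3 tested relatives of the 10 genes, 2 were called higher, beside 18.1% of all genes tested, and 0 lower, beside 20.5%. SAT2, a relative of SAT1 that acts on thialysine rather than on spermidine, had 67.6 and 67.0 FPKM in the PH libraries, against 24.3 and 20.3 FPKM in the DMSO libraries, a difference of 1.56 ± 0.10 (adjusted p = 0.000548). AZIN2, a second antizyme inhibitor, had 18.4 and 19.7 FPKM in the PH libraries, against 10.7 and 7.45 FPKM in the DMSO libraries, a difference of 1.01 ± 0.17 (adjusted p = 0.00899), so the inhibitor genes AZIN1 and AZIN2 were called in opposite directions. The AZIN2 call was lost without PH replicate 1 (adjusted p = 0.0526) and without PH replicate 2 (0.0607), within 0.00535 to 0.0607 over the alternatives. OAZ3, the antizyme of the testis, was at 1.22 and 1.36 FPKM in the PH libraries, against 0.425 and 1.03 FPKM in the DMSO libraries, and was not called (adjusted p = 0.240).

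Of 5 tested genes of ornithine and arginine supply, 2 were called lower, beside 20.5% of all genes tested, and 1 higher, beside 18.1%. SLC25A15, the mitochondrial ornithine carrier, had 8.67 and 7.24 FPKM in the PH libraries, against 17.4 and 17.2 FPKM in the DMSO libraries (-1.04 ± 0.11, adjusted p = 0.00231). ASL, argininosuccinate lyase, had 6.54 and 8.81 FPKM in the PH libraries, against 14.6 and 15.3 FPKM in the DMSO libraries (-0.89 ± 0.15, adjusted p = 0.00889). Exons of ASL share 17.6% of their bases with AC068533.4 on the same strand, which reached no more than 0.451 FPKM. The ASL call was lost without DMSO replicate 1 (adjusted p = 0.0584) and without DMSO replicate 2 (0.0667), within 0.00541 to 0.0667. ARG2, the mitochondrial arginase that yields ornithine, had 19.9 and 19.4 FPKM in the PH libraries, against 13.1 and 14.3 FPKM in the DMSO libraries (0.49 ± 0.09, adjusted p = 0.00997). That call was lost without PH replicate 1, PH replicate 2 or DMSO replicate 1 (adjusted p = 0.0606, 0.0521 and 0.0572), within 0.00697 to 0.0935, and 37.4% of the exon bases of ARG2 are shared with VTI1B on the opposite strand, at up to 25.3 FPKM. OAT, ornithine aminotransferase, at 96.7 and 95.1 FPKM in the PH libraries, against 99.7 and 97.7 FPKM in the DMSO libraries, was not called (95% interval -0.17 to 0.09).

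Of 8 tested genes of methionine and methylthioadenosine metabolism, 4 were called lower, beside 20.5% of all genes tested, and 0 higher, beside 18.1%. Their median difference was -0.23. Methylthioadenosine is the by-product of spermidine and spermine synthesis. MAT2A, the methionine adenosyltransferase that supplies AMD1, had 139 and 142 FPKM in the PH libraries, against 205 and 211 FPKM in the DMSO libraries (-0.56 ± 0.05, adjusted p = 0.00120), and 12.4% of its exon bases are shared with GGCX on the opposite strand, at up to 29.9 FPKM. AHCY, adenosylhomocysteinase, had 67.1 and 64.8 FPKM in the PH libraries, against 100.9 and 98.2 FPKM in the DMSO libraries (-0.59 ± 0.05, adjusted p = 0.00134). MTAP, methylthioadenosine phosphorylase, had 79.3 and 83.1 FPKM in the PH libraries, against 112.6 and 109.3 FPKM in the DMSO libraries (-0.45 ± 0.05, adjusted p = 0.00316). The salvage gene ENOPH1 was the other gene called lower (-0.31 ± 0.07, adjusted p = 0.0201), a call lost without each library in turn (adjusted p = 0.0589 to 0.0990), within 0.0147 to 0.558 over all alternatives. MRI1, APIP, ADI1 and MAT2B were not called.

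**Figure D4:**
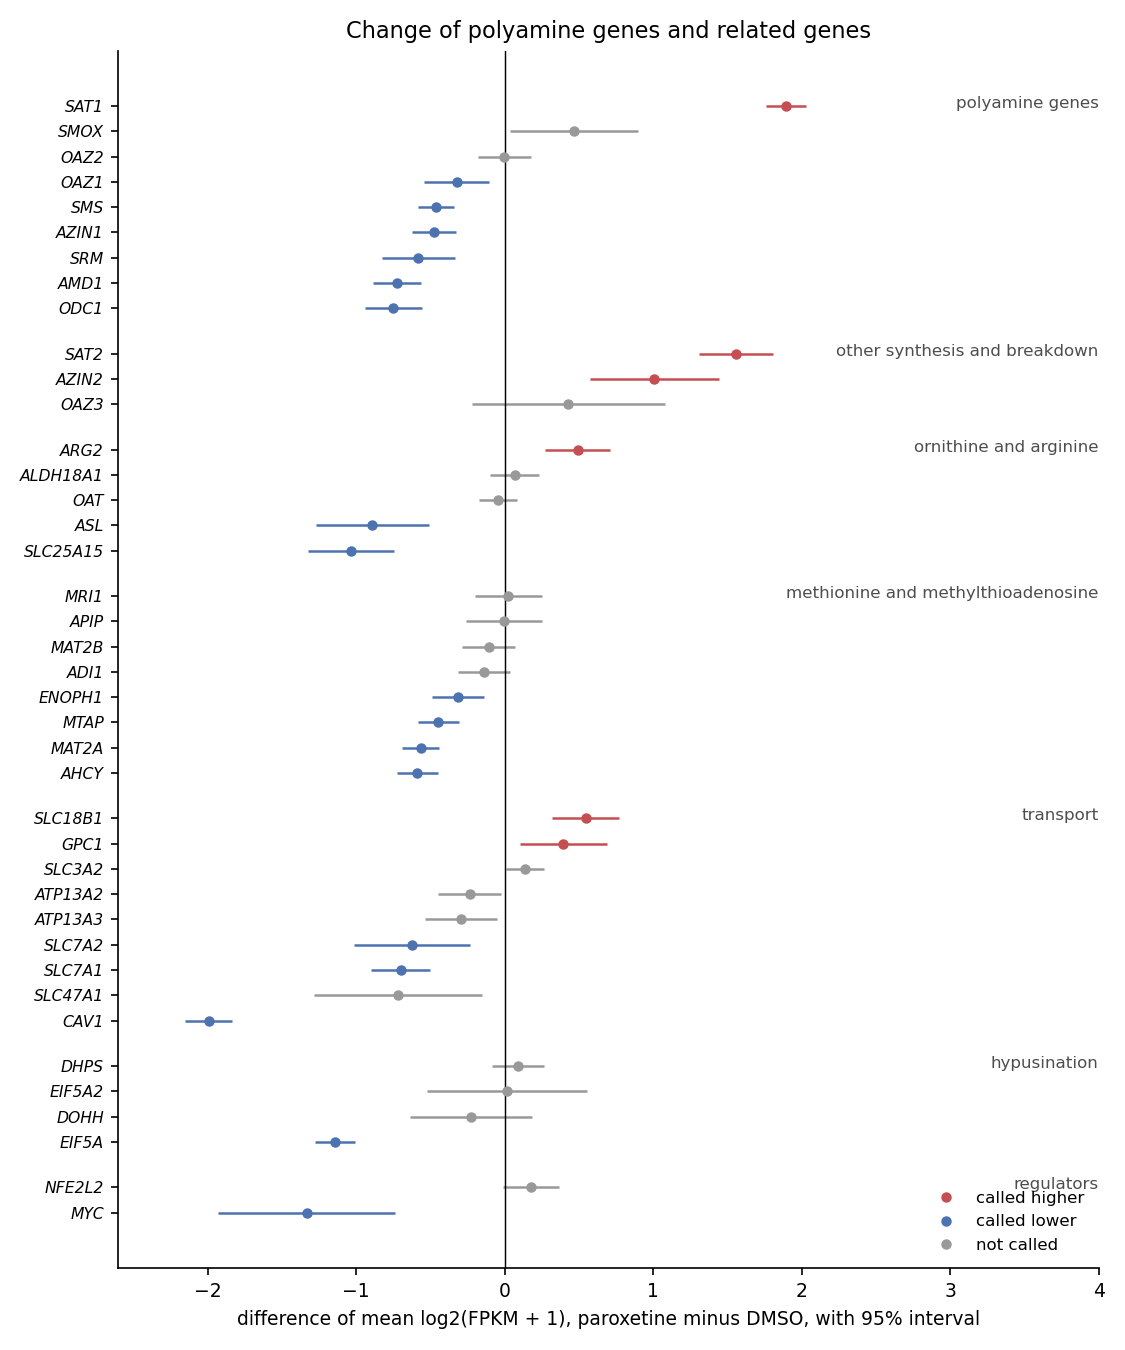
Difference of mean log2(FPKM + 1), PH minus DMSO (x axis), with its 95% interval from limma, for the 9 polyamine genes and for the related genes reported, grouped by list; red was called higher, blue lower and grey not called. SAT1, SAT2 and AZIN2 lie at 1.01 or above, and CAV1, MYC, EIF5A and SLC25A15 at -1.04 or below.

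Of 9 tested genes linked to polyamine or arginine transport, 3 were called lower, beside 20.5% of all genes tested, and 2 higher, beside 18.1%. CAV1, caveolin, linked to polyamine uptake through caveolae, had 41.6 and 39.9 FPKM in the PH libraries, against 171 and 159 FPKM in the DMSO libraries (-1.99 ± 0.06, adjusted p = 0.000189). SLC7A1, the main carrier of arginine, had 25.5 and 28.7 FPKM in the PH libraries, against 44.3 and 44.7 FPKM in the DMSO libraries (-0.70 ± 0.08, adjusted p = 0.00246). SLC7A2, a further carrier of cationic amino acids, had 2.27 and 2.41 FPKM in the PH libraries, against 4.26 and 4.03 FPKM in the DMSO libraries (-0.62 ± 0.15, adjusted p = 0.0276), a call lost without each library in turn (adjusted p = 0.0818 to 0.118), within 0.0138 to 0.123. SLC18B1, the vesicular polyamine transporter, had 15.59 and 15.61 FPKM in the PH libraries, against 10.5 and 10.2 FPKM in the DMSO libraries (0.54 ± 0.09, adjusted p = 0.00764). GPC1, a proteoglycan linked to uptake, had 9.84 and 10.99 FPKM in the PH libraries, against 8.01 and 7.35 FPKM in the DMSO libraries, and was also called higher (0.39 ± 0.12, adjusted p = 0.0471). The GPC1 call was lost in 8 of 14 alternatives, including each of the 4 that leave out a library (adjusted p = 0.0920 to 0.186), within 0.0314 to 0.394 over all of them. The lysosomal polyamine exporter ATP13A2 and its relative ATP13A3 were not called, with 19.0 and 19.6 and with 40.8 and 34.5 FPKM in the PH libraries, against 21.8 and 24.1 and 47.7 and 44.8 FPKM in the DMSO libraries.

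Spermidine is also the donor for hypusine, a modified lysine found on the translation factor eIF5A. EIF5A had 324 and 341 FPKM in the PH libraries, against 740.2 and 729 FPKM in the DMSO libraries (-1.14 ± 0.05, adjusted p = 0.000295), and 8.56% of its exon bases are shared with GPS2 on the opposite strand, at up to 68.8 FPKM. DHPS and DOHH, the enzymes that make hypusine, were not called, with 81.3 and 89.2 FPKM for DHPS in the PH libraries, against 77.9 and 82.3 FPKM in the DMSO libraries. MYC, a transcription factor known to act on ODC1, had 2.90 and 3.11 FPKM in the PH libraries, against 7.06 and 11.6 FPKM in the DMSO libraries (-1.33 ± 0.24, adjusted p = 0.0100), a call lost without PH replicate 1 (adjusted p = 0.0608) and without PH replicate 2 (0.0537), within 0.00590 to 0.0608. NFE2L2, which encodes NRF2, was not called (50.0 and 49.5 FPKM in the PH libraries, against 41.5 and 46.4 FPKM in the DMSO libraries).

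FPKM summed to 606197 and 640029 in the PH libraries and to 655607 and 655004 in the DMSO libraries. FPKM is already scaled for library size, so these sums do not measure it. Depth relative to DMSO replicate 1 was estimated from the most frequent ratio between low values. It was 0.872 and 0.971 in the PH libraries and 0.930 in DMSO replicate 2. Numbers of reads are unknown, so no counting interval is given. Of 10 melanocyte lineage markers, 5 passed the filter, of which 2 were called higher, beside 18.1% of all genes tested, and 1 lower, beside 20.5%. SOX10 was called higher, at 271 to 275 FPKM in the PH libraries and 181 to 193 FPKM in the DMSO libraries. GPNMB was also called higher and S100B lower. MITF, at 5.36 and 5.98 FPKM in the PH libraries, against 7.23 and 7.73 FPKM in the DMSO libraries, and S100A1 were not called. TYR was at 0 and DCT, TYRP1, MLANA and PMEL were under 1 FPKM in every library. Of 6 markers of other cell types, 5 were under 1 FPKM, and the globin gene HBB was at 31.98 and 96.9 FPKM in the PH libraries and 1.08 and 33.1 FPKM in the DMSO libraries (adjusted p = 0.160). The part of these markers in the results was not tested.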

How the data were processed

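RNA sequencing of A375 cells gave 4 libraries, 2 with paroxetine (PH) and 2 with DMSO. The authors deposited FPKM values per gene: per the submitters' processing notes, CASAVA 1.4, HISAT2 2.1.0 and Cufflinks 2.2.1 were used with hg38. The sources used here do not give their options, the scaling between libraries, the annotation, the strand setting or the handling of multiply mapped reads. The labels' protocols name both poly(A) fractions and removal of ribosomal RNA. The 4 FPKM columns were matched to the titles by name, and 12 other per-sample columns were not used.

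The 15511 genes reaching 1 FPKM in any 2 or more libraries were compared on log2(FPKM + 1) with limma 3.58.1 (R 4.3.3), two-sided, with the mean-variance trend (2 residual and 3.32 prior degrees of freedom). P-values were adjusted by the Benjamini-Hochberg method over these genes. Differences are PH minus DMSO ± SE. On this scale changes of low genes are understated. The test was run on simulated data first. Positions and exon overlaps are from GENCODE release 29, matched by Ensembl identifier. The members, the lists and the tests were chosen with earlier results of these data known. All 10 members are named, and of each related list the called genes up to the 4 largest differences; GPC1 and the genes not called were named after their values were seen, and 1 related gene is not reported here, though it stays in the counts. The ratio of SMOX to PAOX was not formed, since PAOX was listed at 0. Replicate numbers are not stated to pair libraries and were not used as pairs. Alternatives are scaling, filter, pseudocount, variance model, replicate block, a test for changes beyond 1.2-fold, and leaving out each library.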

Additional observations from a re-analysis of the deposited data

How the results depend on the processing

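SAT1, ODC1, AMD1, SMS and AZIN1 kept their direction and their call in all 14 alternatives, with differences of 1.88 to 2.01, -0.79 to -0.70, -0.75 to -0.66, -0.49 to -0.28 and -0.52 to -0.37. SRM lost its call in 2 of them (without DMSO replicate 1 and for changes beyond 1.2-fold, adjusted p = 0.0527). For changes beyond 1.2-fold the calls of MTAP (adjusted p = 0.0507) and SLC18B1 (0.0574) were also lost. SMOX was called after rescaling without mitochondrial and abundant RNAs and with the replicate block, which made 2 members higher in each, and without PH replicate 1. Between 1 and 2 members were called higher when a library was left out. OAZ2, not called in any setting, turned positive under trimmed-mean scaling (0.0063), quantile normalization (0.056), rescaling (0.049), without PH replicate 1 (0.064) and without DMSO replicate 1 (0.031), with a range of -0.067 to 0.064 when a library was left out. With no filter PAOX was tested and not called (adjusted p = 0.463). SLC7A2 was below the minimum of 5 FPKM. For changes beyond 1.2-fold 1267 genes were called higher and 1615 lower, with 2 related genes higher and 8 lower. Of the members, 1 was then called higher and 4 lower. Without a library, 1442 to 1539 genes were called higher, 1773 to 2221 lower and 2 to 4 related genes higher. The log2 ratio of AMD1 to ODC1 was 0.046 higher in PH and ranged from -0.0043 to 0.096 without a library. After rescaling without mitochondrial and abundant RNAs, where SMOX was called, 3140 genes were called higher and 2817 lower, against 2811 and 3184 in the main test. The median difference over all genes tested was 0.039 after this rescaling. With replicate number as a replicate block 2492 genes were called higher and 2883 lower. Deviations of same-numbered libraries correlated at -0.042 across genes. The cause of these changes was not tested. With 2 libraries per group and unknown read numbers, a gene that missed the threshold may still differ.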
